A study of Citrus x limon with 9 samples.

Results

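The return of irrigation to lemon trees that had been short of water was examined in the bud transcriptome. The comparison takes the 3 libraries of stage 3, made from buds a week after watering was resumed, against the 3 libraries of stage 2, made a week into the water deficit. These are 6 of the 9 libraries of the series, chosen by their stage labels alone, and the other 3 are stage 1, a week before the deficit began. All buds came from potted young Femminello lemon trees grafted on trifoliate orange, and each library pooled the terminal bud and the buds just below it. The plants of stage 2 stood in drier soil, which was held at a fixed low moisture, and those of stage 3 were again fully watered. Flower buds could be seen by eye at stage 3. In the study's bud sections, floral differentiation began within days of the start of the deficit, and so before stage 2. Watered trees of the same date are not among these libraries, so the passage of time, the growth of the flower buds and the supply of water cannot be told apart. The hour of day at which buds were taken is not given in the sources used here.

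In plants short of water, abscisic acid rises, growth by cell expansion slows, and protective and stress-response genes are switched on. When water returns, abscisic acid is broken down, aquaporins let water back into cells, and enzymes of the cell wall loosen it so that cells can enlarge. In citrus, a spell of drought followed by irrigation is also a common way to bring trees into flower, and the buds that resume growth then carry floral organs.

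The levels were FPKM, that is fragment counts scaled to transcript length and library size, as deposited for 22353 genes. Each of the 6 libraries summed to between 631242 and 636775 FPKM. Genes with a value above 0 numbered 19210 to 19579 at stage 2 and 19716 to 19752 at stage 3. The values are FPKM and not read counts, so no interval from read counts is given. The median spread between replicates, for genes of a mean of at least 5 FPKM, was a CV of 9.42% at stage 2 and 8.21% at stage 3. For the test, values were taken as log2(FPKM + 1) and fitted with limma over the 9 libraries, and 17729 genes passed the filter of at least 1 FPKM in at least 3 libraries. A gene is described as having risen or fallen when it passed an adjusted p of 0.05 (method of Benjamini and Hochberg, over all genes tested) with a log2 fold change of 1 or more in size. Fold changes on this scale understate those of genes with low levels. Every adjusted p below is of this kind. In bulk samples such as these, fewer cells of a type and less RNA per cell cannot be told apart.

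Between stage 2 and stage 3, 1322 genes changed, or 7.46% of those tested. Of these, 872 rose (4.92%) and 450 fell (2.54%). The risers had a median level of 4.00 FPKM at stage 2 and 15.5 FPKM at stage 3, and the fallers went from a median of 18.9 to one of 5.48 FPKM. Most changes were moderate, since 699 risers and 380 fallers lay between 1 and 2 on the log2 scale, while 34 risers and 14 fallers passed 3. The excess of risers belongs to the fold threshold. With the adjusted p alone, 2876 genes were higher and 3514 were lower, and the median of all genes tested was -0.06. All 3 stage 3 libraries lay above all 3 stage 2 libraries in 19.9% of the genes tested and below them in 26.5%.

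**Figure D1:**
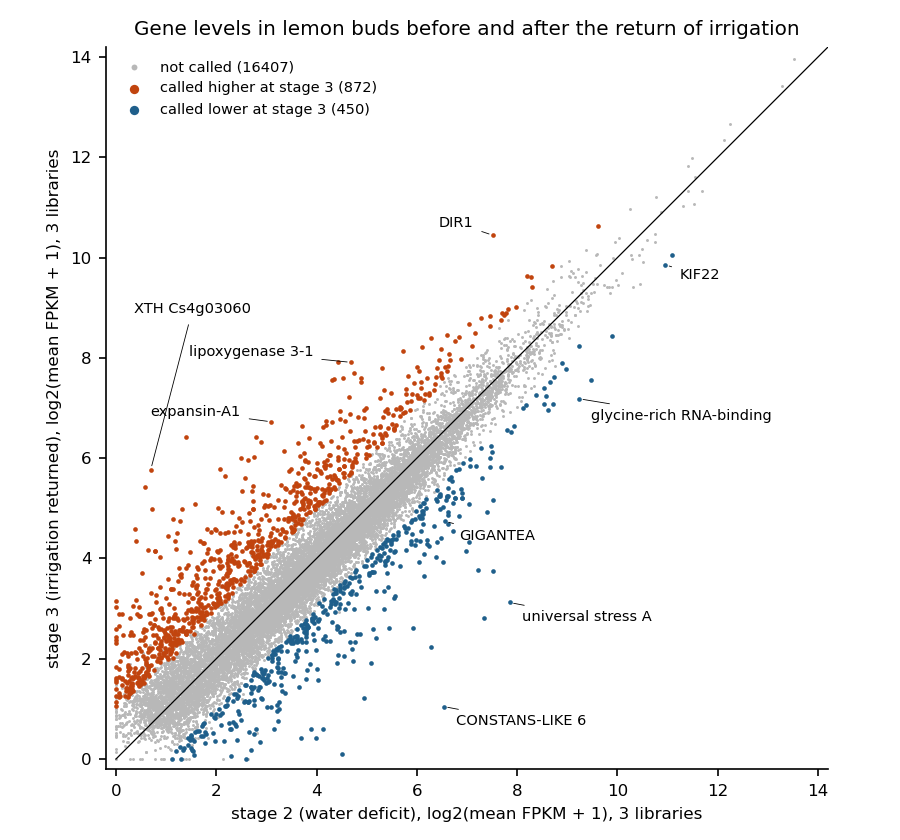
Mean level of each of the 17729 genes tested at stage 2 (horizontal axis) and stage 3 (vertical axis), both as log2(mean FPKM + 1) over 3 libraries, with 872 genes that rose in orange, 450 that fell in blue and the rest in grey. Genes of the cell wall and the lipoxygenase lie far above the diagonal line of equal levels, and the CONSTANS-LIKE 6 gene lies far below it.

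The largest rises by log2 fold change were those of enzymes that remodel the cell wall. Xyloglucan endotransglucosylase/hydrolases (XTHs) cut and rejoin the xyloglucan chains that tie cellulose fibres together. The XTH gene Cs4g03060 was at 0.57, 0.44 and 0.84 FPKM in the 3 stage 2 libraries and at 52.4, 51.6 and 56.6 FPKM in the 3 stage 3 libraries, a log2 fold change of 5.08 (SE 0.16, limma adjusted p = 1.5e-09). Its neighbour in the fold ranking, the XTH 23 gene Cs4g03140, stood at 1.28, 1.04 and 2.59 FPKM and then at 83.8, 93.0 and 78.5 FPKM, a log2 fold change of 5.07 (SE 0.18, adjusted p = 4.1e-09). In both genes the stages were far apart in all libraries. The fold ranking, though, took only genes whose stage 2 and stage 3 libraries did not overlap. The stage 1 means of both genes were also low, at 3.40 and 7.97 FPKM. These XTH genes have the same best protein match, so the split of reads between them is uncertain. Among genes chosen after their values were seen, the XTH Cs4g03130 rose from a mean of 20.4 ± 4.25 to 241 ± 2.13 FPKM (SD, n = 3) and Cs4g03200 from 175 ± 6.84 to 398 ± 6.11 FPKM. The XTH 9 gene Cs2g22200, also chosen after its values were seen, went the other way and fell from 176 ± 13 to 74.9 ± 3.44 FPKM.

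Counted by protein match, 2 of 5 tested XTH genes rose and none fell, and Cs4g03050 had the largest rise of these (2.92 ± 0.48 to 23.2 ± 3.58 FPKM). With genes added by a shared KEGG entry, a choice made after the annotation had been seen, 7 of 17 rose and 1 fell. The lower count was 1 by protein match and 2 with KEGG entries added without stage 2 replicate 1 or stage 3 replicate 2. In the table, 56.0% of the gene models carry no protein match with a description, and counts by protein match are therefore low. Counts with KEGG entries added are given beside them below, except for lists that gained no tested gene. Every count of a list is to be read beside the 4.92% of all genes tested that rose and the 2.54% that fell.

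Expansins, which loosen the wall without cutting its chains, were also among the genes that rose. The expansin-A1 gene Cs7g03630, described as hypothetical by its protein match and therefore outside the list, was at 8.37, 9.27 and 5.10 FPKM at stage 2 and at 106, 106 and 102 FPKM at stage 3, a log2 fold change of 3.66 (SE 0.15, adjusted p = 1.1e-08). Its stage 1 mean was 105 ± 1.03 FPKM, so the low values are those of the 3 deficit libraries. Of the 10 expansins in the list, 5 rose and 1 fell, with a median log2 fold change of 1.26 against -0.06 for all genes tested. The expansin-like A1 gene Cs8g01880 rose most, from 28.2, 24.5 and 24.7 FPKM to 202, 221 and 197 FPKM. The other risers, named after their values were seen, were Cs8g18640, Cs6g21460, Cs6g06530 and Cs9g15150, with log2 fold changes of 2.17, 2.08, 2.06 and 1.85. The expansin-like B1 gene Cs5g07856 fell from 12.3 ± 0.93 to 5.11 ± 1.77 FPKM, and its log2 fold change of -1.17 became -0.90, short of the threshold, without stage 3 replicate 2. The lower count of the list was 2 without stage 2 replicate 1 or stage 3 replicate 3.

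Enzymes that cut or modify pectin, the gel between the cellulose fibres, rose in 5 of 25 cases by protein match and in 11 of 37 with KEGG entries added, and none fell in either count, though 1 did in each without stage 3 replicate 2. The pectate lyase 18 gene Cs5g06600 was at 5.49, 5.05 and 5.39 FPKM at stage 2 and at 27.6, 31.3 and 27.6 FPKM at stage 3 (log2 fold change 2.24, SE 0.09, adjusted p = 8.0e-09). The polygalacturonase gene Cs9g01630, chosen after its values were seen, rose from 0.71 ± 0.17 to 16.8 ± 2.22 FPKM, beside 15.9 FPKM at stage 1. Both genes were low at stage 2 only.

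Cellulose synthesis changed in opposite directions in 2 genes. The cellulose synthase-like D3 gene Cs3g09000, of a family known in Arabidopsis for wall synthesis in growing root hairs, was at 4.53, 4.66 and 4.61 FPKM at stage 2 and at 65.7, 67.0 and 58.0 FPKM at stage 3 (log2 fold change 3.52, SE 0.10, adjusted p = 9.2e-10). Cs9g08750, annotated as the cellulose synthase catalytic subunit 8 that in Arabidopsis builds secondary walls, stood at 64.5, 72.5 and 80.2 FPKM and then at 20.4, 19.8 and 18.4 FPKM (log2 fold change -1.83, SE 0.10, adjusted p = 1.3e-07). The stages did not overlap in either gene. The other 9 of the 11 cellulose synthases tested by protein match did not pass the test, and with KEGG entries added 2 of 19 rose and 1 fell.

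Aquaporins are the water channels of the plasma membrane and the vacuole. Of 11 tested by protein match, 6 rose and none fell, with a median log2 fold change of 1.01, and with KEGG entries added 9 of 22 rose and none fell. The higher counts were 4 to 6 and 7 to 9 when 1 library was left out, and each was smaller without any 1 stage 2 or stage 3 library. The plasma membrane aquaporin PIP2-2 gene Cs6g11690 was at 4.83, 6.28 and 5.80 FPKM at stage 2 and at 14.5, 16 and 18.5 FPKM at stage 3 (log2 fold change 1.38, SE 0.14, adjusted p = 1.1e-05). Higher in level, and chosen after their values were seen, were PIP2-5 (Cs7g25610) and PIP1-4 (Cs6g07970). The PIP2-5 gene went from 73.9, 76.8 and 66.0 FPKM to 181, 190 and 211 FPKM (log2 fold change 1.41), and the PIP1-4 gene from 8.63, 11.8 and 11.6 FPKM to 42.2, 40.4 and 45.5 FPKM (log2 fold change 1.91). In each of these genes the stages were separate, and the stage 1 means of PIP2-5 and PIP1-4, 270 and 86.7 FPKM, were above those of stage 3.

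The gains of Cs5g24670 and Cs6g09950 were among the 6 largest in FPKM. Both genes were annotated as lipid transfer proteins, small secreted proteins that bind lipids. The DIR1 gene Cs5g24670 stood at 208, 188 and 152 FPKM at stage 2 and at 1436, 1393 and 1349 FPKM at stage 3 (log2 fold change 2.94, SE 0.09, adjusted p = 1.5e-09), beside 1320 ± 49.3 FPKM at stage 1. A DIR1-like gene, orange1.1t01576, rose from 18.8 ± 6.46 to 189 ± 10.2 FPKM, and the lipid transfer precursor Cs6g09950 from 292 ± 33.2 to 797 ± 49.2 FPKM. All 3 were lowest in the deficit libraries. Of 41 genes of cuticle, wax and lipid transfer, 5 rose and none fell, and 4 of the 5 risers were GDSL esterases or lipases, while 7 of 63 rose and none fell with KEGG entries added.

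Among the other large gains were the ABC transporter Cs6g04450 (416 ± 9.86 to 913 ± 24.4 FPKM) and the stress-responsive A/B barrel gene Cs3g07720 (308 ± 22.0 to 782 ± 15.3 FPKM). The uncharacterized gene Cs8g11514 had 991, 772 and 579 FPKM at stage 2 and 1289, 1653 and 1788 FPKM at stage 3. Its log2 fold change of 1.03 fell short of the threshold, at 0.84 to 0.99, without stage 2 replicate 3, stage 3 replicate 2 or stage 3 replicate 3. Among the largest rises in fold, the L-ascorbate oxidase homolog Cs8g01960, a relative of enzymes that oxidize ascorbate in the wall, went from 0.64 ± 0.53 to 30.6 ± 0.98 FPKM (log2 fold change 4.32). The list of such rises also held Cs4g01950, Cs9g14150 and Cs7g05460, which carry no functional description, with log2 fold changes of 4.03, 3.73 and 3.67.

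**Figure D2:**
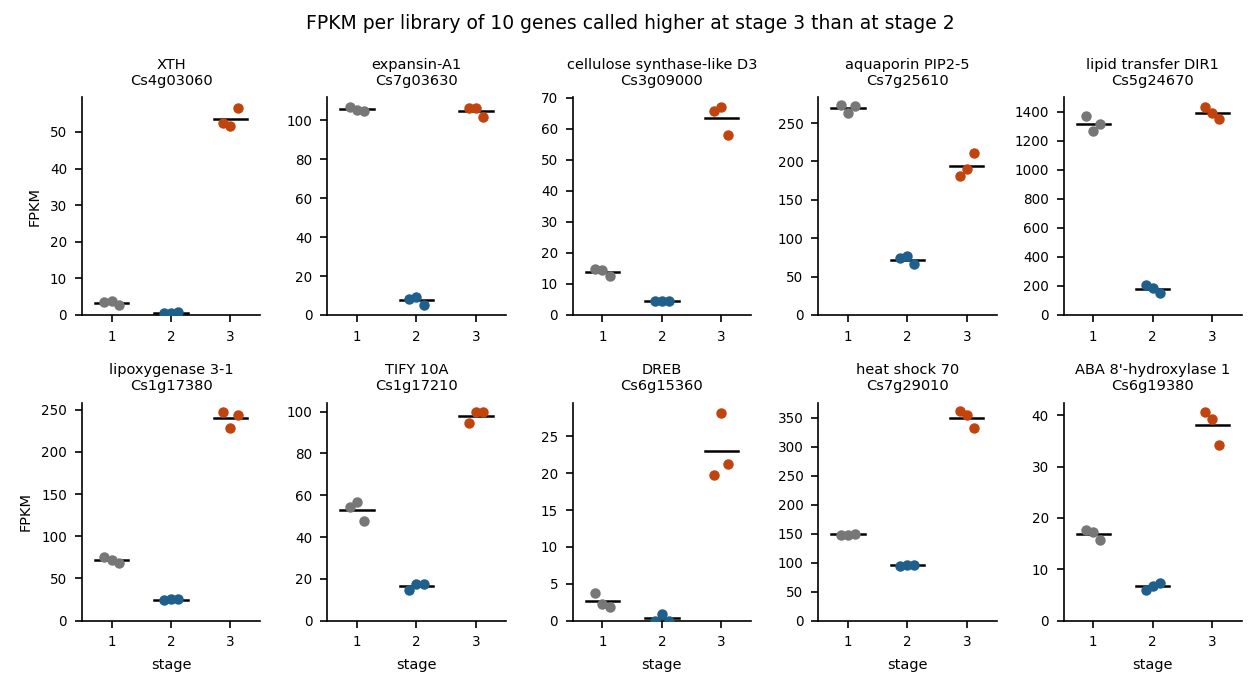
FPKM of 10 genes that rose, in each library at stages 1, 2 and 3, as points (3 per stage) with a bar at the stage mean, each panel with its own axis from 0. The 3 stage 3 points lie above the 3 stage 2 points in every panel. The XTH, cellulose synthase-like D3, lipoxygenase 3-1, TIFY 10A, DREB, heat shock 70 and abscisic acid 8'-hydroxylase 1 genes were also below stage 3 at stage 1. Expansin-A1 and DIR1 were at stage 1 near their stage 3 levels, and aquaporin PIP2-5 was highest at stage 1.

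Genes of jasmonate synthesis and signalling were among those that rose. Jasmonate, a hormone of defence and of flower development, is made from linolenic acid by lipoxygenase, allene oxide synthase, allene oxide cyclase and 12-oxophytodienoate reductase, and its signalling is held back by TIFY (JAZ) repressors that are themselves induced by it. Of 18 jasmonate genes tested by protein match, 9 rose and none fell, with a median log2 fold change of 1.03 and a median level of 15.6 FPKM at stage 2 and 35.8 FPKM at stage 3. With KEGG entries added, 12 of 28 rose and none fell. The lipoxygenase 3-1 gene Cs1g17380 stood at 23.9, 25.2 and 25.6 FPKM and then at 247, 228 and 244 FPKM (log2 fold change 3.22, SE 0.06, adjusted p = 1.4e-10). All stage 3 libraries lay far above stage 2, and the stage 1 mean, 71.4 ± 3.60 FPKM, was in between.

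The other steps of the pathway and the repressors were chosen after their values were seen. The lipoxygenase 2-1 gene orange1.1t03769 rose from 2.33 ± 0.77 to 18.8 ± 1.12 FPKM, and allene oxide synthase Cs3g24230 from 34.2 ± 3.20 to 78.4 ± 3.15 FPKM. Allene oxide cyclase Cs7g12890 went from 69.3 ± 5.59 to 141 ± 2.74 FPKM, with a log2 fold change of 1.02 that was 0.96 without stage 2 replicate 3. The reductases Cs5g17900 and Cs5g17920, annotated as 12-oxophytodienoate reductase 2-like, had log2 fold changes of 1.49 and 1.23. At stage 1 lipoxygenase 2-1, allene oxide synthase and allene oxide cyclase had means of 52.3, 35.3 and 78.6 FPKM, and only the first was far above its stage 2 mean. The reductases had 3.32 and 19.8 FPKM at stage 1, beside 3.07 and 14.6 FPKM at stage 2. Of the repressors, the TIFY 10A gene Cs1g17210 was at 14.7, 17.5 and 17.4 FPKM at stage 2 and at 94.7, 99.9 and 99.8 FPKM at stage 3 (log2 fold change 2.5), and TIFY 5A (Cs2g03240), TIFY 9 (Cs7g02820) and a further TIFY 10A (Cs1g17220) had log2 fold changes of 2.70, 2.23 and 1.93. In the same order, their stage 1 means were 52.9, 18.0, 23.4 and 85.8 FPKM, between those of stage 2 and stage 3.

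Transcription factors of the ethylene response and dehydration-response families share the AP2/ERF DNA-binding domain. By protein match 7 of 55 ethylene genes rose (12.7%) and 1 fell (1.82%), beside 4.92% and 2.54% of all genes tested. The median log2 fold change of the list was 0.03, against -0.06 for all genes tested. With KEGG entries added 14 of 86 rose (16.3%) and 1 fell (1.16%). The lower of these last counts was 2 without stage 2 replicate 2. The factor ERF109 (Cs8g05910) stood at 29.6, 32.8 and 22.9 FPKM at stage 2 and at 168, 195 and 217 FPKM at stage 3 (log2 fold change 2.73, SE 0.12, adjusted p = 2.1e-08). The one faller, ABR1 (Cs3g21660), which in Arabidopsis represses abscisic acid responses, went from 5.18 ± 0.91 to 1.19 ± 0.37 FPKM. The dehydration-responsive element-binding (DREB) protein 1D gene Cs6g15360 was listed at 0, 0.93 and 0 FPKM at stage 2 and at 19.8, 28.1 and 21.2 FPKM at stage 3 (log2 fold change 4.25, SE 0.29, adjusted p = 5.6e-07). DREB factors take their name from drought response, and this one was near 0 in the deficit libraries. A further pair chosen after their values were seen, the DREB Cs5g10240 and the CRT/DRE binding factor Cs9g16810, rose from 5.97 ± 0.73 to 84.5 ± 11.5 FPKM and from 22.0 ± 3.75 to 194 ± 4.09 FPKM.

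Calcium sensors read the calcium signals of the cell. By protein match 3 of 41 rose (7.32%) and 1 fell (2.44%), beside 4.92% and 2.54% of all genes tested. With KEGG entries added 12 of 85 rose (14.1%) and 2 fell (2.35%). The calmodulin-like gene CML27 (orange1.1t00071) had one of the largest gains in FPKM, from 332, 325 and 282 FPKM to 664, 628 and 741 FPKM (log2 fold change 1.11, SE 0.07, adjusted p = 3.3e-07). CML23 (Cs6g17590) and a plasma membrane calcium ATPase (Cs1g21430), which pumps calcium out of the cytosol, were chosen after their values were seen and had log2 fold changes of 2.55 and 3.48. The sensor CBL7 (orange1.1t02723) fell from 58.7, 66.5 and 83.2 FPKM to 11.4, 14.8 and 8.47 FPKM (log2 fold change -2.51, SE 0.19, adjusted p = 1.4e-06). The CBL-interacting kinase gene Cs7g06310, of the family that such sensors activate and chosen after its values were seen, fell from 25.3 ± 2.91 to 3.56 ± 0.34 FPKM.

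Of the WRKY factors, regulators of defence and stress responses, 6 of 27 rose (22.2%) and none fell by protein match. With KEGG entries added 7 of 44 rose (15.9%) and 1 fell (2.27%). Without stage 3 replicate 1 the lower counts were 1 and 2. WRKY33 (Cs6g09420), a defence regulator in Arabidopsis, went from 6.33, 6.79 and 7.36 FPKM to 32.7, 33.2 and 31 FPKM (log2 fold change 2.09, SE 0.13, adjusted p = 2.4e-07). The one faller, WRKY70 (Cs6g10120), named after its values were seen, which in Arabidopsis acts between the salicylate and jasmonate pathways, went from 67.3, 66.6 and 74.1 FPKM to 18.6, 15.2 and 13.9 FPKM (log2 fold change -2.06). The stages did not overlap in either gene. Of 30 bHLH factors 4 rose (13.3%) and none fell. The higher count was 2 without stage 2 replicate 1 or without stage 3 replicate 1. The counts were 6 of 42 (14.3%) and none with KEGG entries added. The bHLH92 gene Cs9g08460 rose from 0.55, 0 and 0.92 FPKM to 42.8, 43.7 and 40.2 FPKM (log2 fold change 4.91, SE 0.25, adjusted p = 6.3e-08).

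Chitinases and pathogenesis-related proteins were split, with 6 of 51 higher (11.8%) and 5 lower (9.8%). The lower count was 3 without stage 2 replicate 3. With KEGG entries added 9 of 70 were higher (12.9%) and 6 lower (8.57%). The activator PTI5 (Cs2g05280) rose from 15.2 ± 3.37 to 54.4 ± 2.74 FPKM, and the chitinase CHI1 precursor (Cs5g21860) fell from 5.89 ± 2.32 to 0.51 ± 0.03 FPKM. The pathogenesis-related PR-1 gene Cs4g02970, chosen after its values were seen, rose from 11.3 ± 1.54 to 77.6 ± 5.64 FPKM.

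Heat shock proteins are chaperones that fold or hold other proteins. By protein match 5 of 42 rose (11.9%) and 2 fell (4.76%), and with KEGG entries added 17 of 78 rose (21.8%) and 4 fell (5.13%), beside 4.92% and 2.54% of all genes tested. The heat shock cognate 70 gene Cs7g29040 was at 4.11, 3.86 and 4.37 FPKM at stage 2 and at 20.6, 24.0 and 22.1 FPKM at stage 3 (log2 fold change 2.18, SE 0.11, adjusted p = 6.9e-08). More abundant was the heat shock 70 gene Cs7g29010, chosen after its values were seen, with 94.7, 96.3 and 96.1 FPKM and then 362, 354 and 333 FPKM. Heat shock 83 (Cs9g19220), a member of the 90-kDa family that was also chosen after its values were seen, rose from 15.9 ± 2.13 to 78.0 ± 6.33 FPKM. All 3 genes were above their stage 1 means at stage 3, which were 6.35, 149 and 8.01 FPKM.

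The small heat shock proteins went both ways, with 5 of 36 genes of their KEGG entry higher and 3 lower. The genes of this class named here were chosen after their values were seen. The class I gene Cs8g19520 rose from 5.23 ± 0.57 to 61.2 ± 8.18 FPKM, while a class I gene (Cs2g24040), the class IV 22.0-kDa gene (Cs5g18500) and the C2 gene (orange1.1t01602) had log2 fold changes of -2.31, -1.68 and -1.91. Of the heat stress factors that control them, HSFC1 (Cs4g15820) fell from 97.8 ± 9.23 to 24.9 ± 3.57 FPKM (log2 fold change -1.94, SE 0.10, adjusted p = 5.4e-08). HSF24 (Cs1g22660), chosen after its values were seen, stood at 48.9, 44.2 and 27.0 FPKM and then at 93.3, 79.5 and 94.7 FPKM, and its log2 fold change of 1.18 was 0.92 without stage 2 replicate 3.

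Abscisic acid genes went both ways. The 8'-hydroxylases break the hormone down, and both that passed the test rose. The second of them below and abscisic stress-ripening protein 1 were named after their values were seen. The 8'-hydroxylase 1 gene Cs6g19380 was at 5.99, 6.71 and 7.27 FPKM at stage 2 and at 40.6, 39.3 and 34.3 FPKM at stage 3 (log2 fold change 2.35, SE 0.10, adjusted p = 1.9e-08). The 8'-hydroxylase 4 gene Cs8g05940 rose from 3.69 ± 0.37 to 10.2 ± 0.11 FPKM, beside 44.0 ± 2.36 FPKM at stage 1. The abscisic stress-ripening proteins, which accumulate under drought and with the hormone, fell. Abscisic stress-ripening protein 2 (Cs3g21500) went from 441, 416 and 407 FPKM to 144, 128 and 134 FPKM (log2 fold change -1.63, SE 0.05, adjusted p = 2.2e-09). Abscisic stress-ripening protein 1 (orange1.1t05396) went from 48.4 ± 8.54 to 21.9 ± 7.20 FPKM, and its log2 fold change of -1.15 was -0.87 without stage 3 replicate 1. In all, 2 of 13 genes of the hormone rose and 2 fell (15.4% each), with a median log2 fold change of -0.34. With KEGG entries added 3 of 18 rose (16.7%) and 2 fell (11.1%). Both lower counts were 1 without stage 3 replicate 1.

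Of the protein phosphatases 2C, a family that includes the brakes on abscisic acid signalling, 1 of 33 rose (3.03%) and 2 fell (6.06%). With KEGG entries added 2 of 62 rose (3.23%) and 3 fell (4.84%). The higher of the first counts was 2 without stage 3 replicate 2. PP2C 78 (Cs8g19140) stood at 176, 152 and 140 FPKM and then at 46, 47.9 and 48.6 FPKM (log2 fold change -1.69, SE 0.07, adjusted p = 1.9e-08), and PP2C 12 (Cs3g23680) rose from 8.22 ± 0.46 to 22.8 ± 1.81 FPKM. PP2C 77 (Cs4g14980), named after its values were seen, had a log2 fold change of -1.02, which was -0.98 and -0.92 without stage 2 replicate 3 and stage 3 replicate 3, where the lower count by protein match was 1. NAC72 (Cs1g06760), a drought-induced factor in Arabidopsis, went from 99.5, 96.0 and 95.1 FPKM to 26.1, 30.5 and 27.5 FPKM (log2 fold change -1.76, SE 0.07, adjusted p = 1.1e-08). The stages were well apart in each of these genes. In the NAC family as a whole, 3 of 31 rose (9.68%) and 2 fell (6.45%).

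Late embryogenesis abundant (LEA) proteins protect dry cells. Of 10 tested, 2 rose and 1 fell, and the lower count was 3 without stage 2 replicate 1 and 2 without stage 1 replicate 1, stage 2 replicate 3, stage 3 replicate 1 or stage 3 replicate 3. The LEA D-29 gene Cs9g01250 fell from 93.8, 80.6 and 76.7 FPKM to 36.6, 31.7 and 35.6 FPKM (log2 fold change -1.25, SE 0.08, adjusted p = 5.0e-07). Its stage 1 mean was higher than both, at 221 ± 11.8 FPKM. The LEA 2 gene Cs1g13160 rose from 0, 0.62 and 0 FPKM to 1.51, 1.84 and 4.14 FPKM, all low values, and the higher count of the list was 1 without any 1 of the stage 3 libraries. None of the 9 genes of raffinose synthesis passed the test. The summed level of the 11 listed was lower at stage 3, though, at 226, 230 and 221 FPKM, against 361, 357 and 361 FPKM at stage 2.

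**Figure D3:**
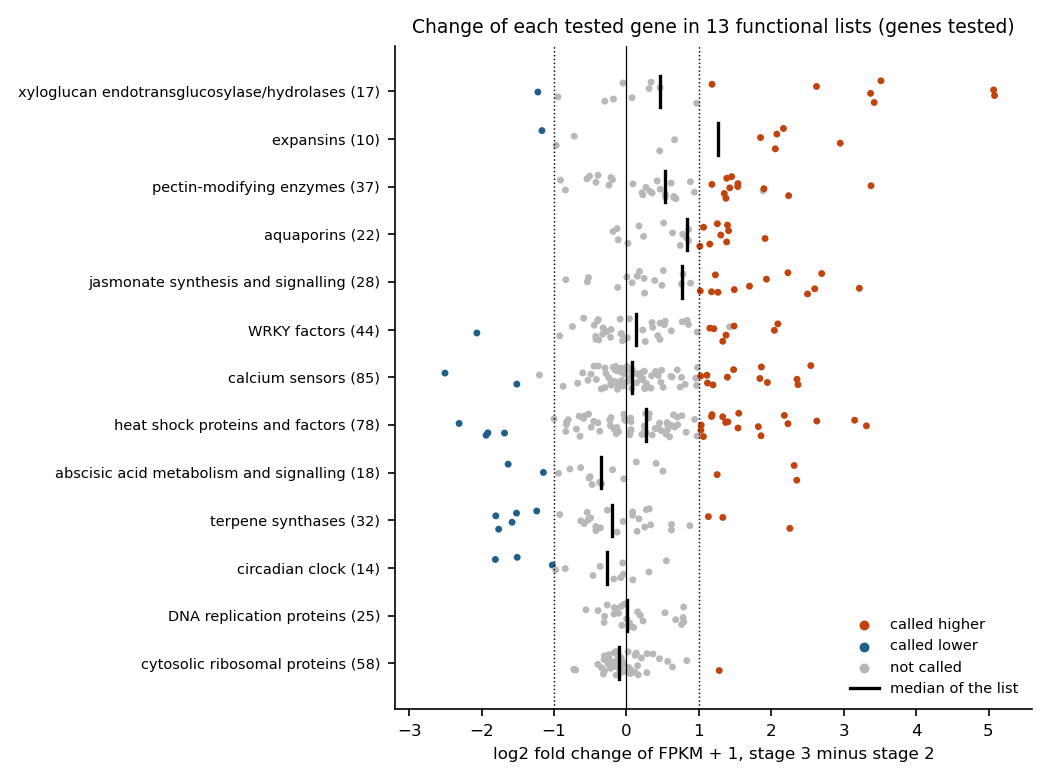
Log2 fold change of FPKM + 1, stage 3 minus stage 2, of every tested gene in 13 functional lists with KEGG entries added (points, orange higher, blue lower, grey not called), with the list median as a black bar and dotted lines at -1 and 1. Points of the aquaporin and jasmonate lists lie mostly to the right of 0, those of the circadian clock list mostly to the left, and those of the replication and ribosomal lists close to 0.

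The largest fall by log2 fold change was that of a CONSTANS-like factor. Such factors are zinc-finger proteins with B-box domains that link light and the day's length to development. The CONSTANS-LIKE 6 gene Cs8g20740 was at 89.7, 95.5 and 89.9 FPKM at stage 2 and at 1.05, 1.19 and 0.96 FPKM at stage 3, a log2 fold change of -5.49 (SE 0.14, adjusted p = 7.6e-10). At stage 1 its mean was also low, at 2.12 ± 0.55 FPKM. In 4 more CONSTANS-like genes, chosen after their values were seen, the log2 fold changes were -2.83 (Cs2g12490), -2.37 (Cs7g02880), -2.34 (Cs2g19010) and -2.05 (Cs2g24030). Of these, Cs2g12490, the CONSTANS-LIKE 16 gene, went from 118, 128 and 130 FPKM to 17.1, 18.3 and 15.1 FPKM. In the list of SPL and CONSTANS-like factors 2 of 14 fell and 1 rose by protein match, and 3 of 15 fell and 1 rose with KEGG entries added. The KEGG entry that holds most of the genes named here, looked at after the values were known, had 7 of 23 lower and none higher.

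Genes of the circadian clock fell or did not pass the test. GIGANTEA (Cs3g21790), an evening gene of the clock that also acts on flowering, stood at 87.3, 91.3 and 101 FPKM at stage 2 and at 25.9, 25.0 and 26.5 FPKM at stage 3 (log2 fold change -1.81, SE 0.10, adjusted p = 1.0e-07), beside 4.94 ± 0.72 FPKM at stage 1. EARLY FLOWERING 3 (Cs1g19130), part of the evening complex, went from 20.5, 24.2 and 28.5 FPKM to 12.2, 11.2 and 10.8 FPKM, and its log2 fold change of -1.02 was -0.91 and -0.99 without stage 2 replicate 3 and stage 3 replicate 3. EARLY FLOWERING 4 (Cs7g31110), of the same complex, had 40.4 ± 2.12 and 19.9 ± 1.1 FPKM and a log2 fold change of -0.99, just short of the threshold. In each of these genes the 3 stage 3 libraries lay below the 3 stage 2 libraries.

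Further clock genes were chosen after their values were seen. The pseudo-response regulator PRR73 (Cs8g17520), a repressor in the clock, went from 115, 115 and 122 FPKM to 42.1, 41.2 and 38.2 FPKM (log2 fold change -1.51). LHY (orange1.1t00580), a morning gene of the clock, had 568, 601 and 623 FPKM and then 883, 885 and 856 FPKM, a log2 fold change of 0.55 that did not reach the fold threshold. PRR1 (orange1.1t04712) and a second EARLY FLOWERING 3 gene (Cs4g18880) had log2 fold changes of -0.98 and -0.84 and were not called. By protein match 2 of 13 clock genes fell and none rose, and with KEGG entries added 3 of 14 fell and none rose. The first of these lower counts was 1 without stage 2 replicate 3 or stage 3 replicate 3. Clock genes cycle over the day, and a part of the sampling hour in these values was not tested.

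The other large falls included several light- and clock-related genes. PCL1 (Cs8g18860), a clock component known as LUX in Arabidopsis, went from 33.9, 29.9 and 26.2 FPKM to 1.28, 1.67 and 1.01 FPKM (log2 fold change -3.74, SE 0.16, adjusted p = 1.9e-08). Cold regulated gene 27 (Cs8g05990), a regulator tied to the clock in Arabidopsis, fell from 14.8 ± 3.12 to 0.33 ± 0.15 FPKM. It reached 1 FPKM in the stage 2 libraries alone, so it entered the test only through the stage where it is high. The light-regulated gene Cs2g14490 fell from 148, 161 and 171 FPKM to 7.22, 5.50 and 5.45 FPKM (log2 fold change -4.52, SE 0.14, adjusted p = 1.5e-09). Each of these genes was as low at stage 1 as at stage 3 or nearly so, with stage 1 means of 1.80, 0.67 and 4.46 FPKM. Adagio 3 (Cs2g17510), a blue-light receptor of the clock, and the EID1-like F-box gene Cs5g31670 were chosen after their values were seen and had log2 fold changes of -2.38 and -2.85.

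By log2 fold change, the universal stress A gene orange1.1t01663 had the next largest fall after Cs8g20740. It went from 256, 215 and 217 FPKM to 8.61, 7.46 and 7.05 FPKM (log2 fold change -4.73, SE 0.10, limma adjusted p = 3.1e-10). Genes annotated as maternal effect embryo arrest 14 (Cs5g28840, Cs5g34390) and 59 (Cs8g19730) had log2 fold changes of -3.80, -3.47 and -4.06, and Cs5g28840 went from 186, 183 and 177 FPKM to 15.4, 11.9 and 9.79 FPKM. The ankyrin repeat gene orange1.1t04846 and the hypothetical gene Cs7g03390 had log2 fold changes of -3.67 and -4.42, with values of 0 in 2 of the 3 stage 3 libraries. Both passed the filter only with the help of the stage 2 libraries, where they are high. The glycine-rich RNA-binding protein Cs8g06360, of a family that in Arabidopsis is under clock control, fell from 637, 640 and 526 FPKM to 136, 142 and 155 FPKM (log2 fold change -2.04). All of these genes had stage 1 means below their stage 2 means.

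Among the largest losses in FPKM was that of a gene called a kinesin only in the study's gene table, as its protein match was not descriptive. The KIF22 kinesin gene Cs6g06310 stood at 2086, 1993 and 1866 FPKM and then at 886, 884 and 1007 FPKM (log2 fold change -1.1, SE 0.06, adjusted p = 9.8e-08), beside 1034 ± 32.1 FPKM at stage 1. A kinesin is a motor that moves along microtubules. The auxin-repressed gene Cs3g14440 fell from 2424, 2213 and 1858 FPKM to 1069, 1044 and 1066 FPKM, and its log2 fold change of -1.02 was -0.94 without stage 2 replicate 1. The heavy metal-associated protein Cs3g18690 and the hypothetical gene Cs6g07690 went from 949 ± 41.0 to 346 ± 21.3 FPKM and from 710 ± 99.3 to 187 ± 14.4 FPKM. HAP3 (Cs7g03150), a subunit of the CCAAT-binding factor, went from 602 ± 16.8 to 300 ± 3.72 FPKM, with a log2 fold change of -1.0 that was -0.98 and -0.99 without stage 2 replicate 1 and stage 3 replicate 2.

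**Figure D4:**
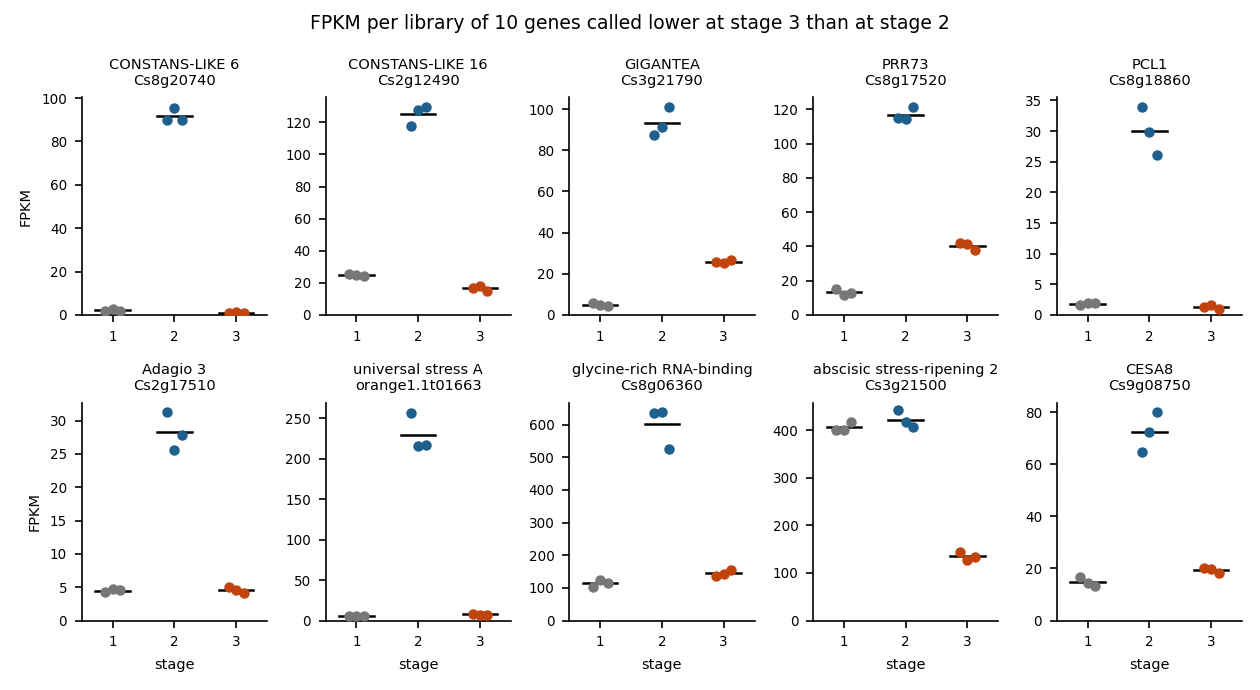
FPKM of 10 genes that fell, in each library at stages 1, 2 and 3, as points (3 per stage) with a bar at the stage mean, each panel with its own axis from 0. The 3 stage 3 points lie below the 3 stage 2 points in every panel, and most of the genes were low at stage 1 as well, except abscisic stress-ripening protein 2, which was about as high at stage 1 as at stage 2.

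Besides GIGANTEA, EARLY FLOWERING 3 and the CONSTANS-like genes above, some genes known for the control of flowering passed the test. In the PEBP family, which holds the flowering signal FT and its antagonists, 1 of 4 tested genes rose and none fell by protein match, and 1 of 5 rose and 1 fell with KEGG entries added. The faller was the phosphatidylethanolamine-binding gene Cs6g08900, named after its values were seen, at 75.6, 72.4 and 59.3 FPKM and then at 26.4, 30.5 and 32.5 FPKM (log2 fold change -1.18, SE 0.10, adjusted p = 3.3e-06). It joined the list by its KEGG entry alone, and its description names no part in flowering. The riser was the CEN-like gene Cs8g15080, whose relatives delay flowering in other species, at 1.01, 0 and 0 FPKM at stage 2 and 5.39, 6.52 and 7.49 FPKM at stage 3 (log2 fold change 2.56, SE 0.29, adjusted p = 4.1e-05). MOTHER OF FT AND TFL1 (Cs2g06960), better known for seed germination in Arabidopsis, had 83.6, 83.3 and 69.7 FPKM and then 53.3, 61.7 and 54.7 FPKM, a log2 fold change of -0.47 that was not called. The FT gene Cs6g05140, chosen after its values were seen, was low in these buds, at 1.84, 1.1 and 1.2 FPKM at stage 2 and 0.77, 0 and 0.53 FPKM at stage 3 (log2 fold change -0.76, adjusted p = 0.062).

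SPL factors promote the change to the flowering phase. SPL9 (orange1.1t02265) rose from 18.0, 15.1 and 16.6 FPKM to 33.5, 37.3 and 39.4 FPKM (log2 fold change 1.1, SE 0.09, adjusted p = 3.0e-06). The SPL genes Cs5g12260, Cs1g03630 and orange1.1t02597 had log2 fold changes of -0.33, 0.53 and 0.38 and were not called. In the MADS-box family, which holds the floral organ identity genes, 1 of 20 rose and 1 fell (5.0% each). With KEGG entries added 1 of 28 rose and 1 fell (3.57% each). SEPALLATA 1 (Cs7g11800), a partner of the organ identity factors, went from 1.59, 5.83 and 3.56 FPKM to 8.36, 11.6 and 9.32 FPKM. Its log2 fold change of 1.30 was 0.94 without stage 2 replicate 1. The faller, AGL16 (Cs3g16896), a repressor of flowering in Arabidopsis, had 1.83 ± 0.57 and 0.38 ± 0.27 FPKM. It reached 1 FPKM in the stage 2 libraries alone, so it entered the test only through the stage where it is high. The lower count was 0 without any 1 of the stage 2 libraries and without stage 3 replicate 2, where the log2 fold change of -1.03 was -0.91. The FLC-like gene Cs5g10810 and the SVP-like gene Cs3g17260, whose relatives repress flowering in Arabidopsis, were chosen after their values were seen and had log2 fold changes of -0.21 and 0.31, neither of them called.

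In the shoot meristem and organ boundary list, 2 of 20 rose and none fell, and the higher count was 1 without stage 2 replicate 2 or 3 or without stage 3 replicate 1 or 2. With KEGG entries added 3 of 27 rose and none fell, and 1 fell without stage 2 replicate 1, stage 3 replicate 1 or stage 3 replicate 3. CUP-SHAPED COTYLEDON 2 (Cs1g08000), which sets boundaries between organs, went from 0.33, 0.33 and 0.35 FPKM to 2.04, 1.63 and 1.90 FPKM (log2 fold change 1.09, SE 0.22, adjusted p = 2.7e-03), a call that was lost under quantile normalization. SHOOT MERISTEMLESS (Cs2g02590), which keeps the meristem going and was chosen after its values were seen, had 70.5 ± 4.99 and 70.5 ± 4.90 FPKM, and its stages overlapped. The summed level of the 30 listed meristem genes was 596 to 618 FPKM at stage 2 and 692 to 698 FPKM at stage 3. For the other cell and organ types a bud can hold, the 8 anther and pollen genes summed to 12 to 17.0 and 12 to 14.9 FPKM, the 25 vascular genes to 114 to 137 and 121 to 125 FPKM, and the 18 photosystem genes to 5260 to 6290 and 5861 to 6666 FPKM. Of these sums, only the meristem ones did not overlap between stages. The part of tissue makeup in the results above was not tested.

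Genes of cell division and protein synthesis differed between lists. Of 30 cyclins and cyclin-dependent kinases, 4 rose (13.3%, beside 4.92% of all genes tested) and none fell. With KEGG entries added 4 of 38 rose (10.5%) and none fell, or 1 without stage 2 replicate 3. The cyclin D3-1 gene Cs3g23120, which drives cells into division, went from 11.1, 13.3 and 12.3 FPKM to 35.1, 32.3 and 32.5 FPKM (log2 fold change 1.38, SE 0.09, adjusted p = 4.3e-07). None of 25 DNA replication genes was called in either direction. Of 11 histones 1 rose (9.09%), H3 (Cs1g20090), from 1.03 ± 0.52 to 5.16 ± 0.35 FPKM. Of 35 kinesins and tubulins in the list by protein match only the KIF22-B gene Cs6g06320 passed the test (2.86%), from 276 ± 45.4 to 127 ± 11.8 FPKM. The KIF22 gene Cs6g06310 described above also fell but lies outside that list. With KEGG entries added, 3 of 26 histones rose (11.5%) and none fell, and 1 of 51 kinesins and tubulins rose (1.96%) and 2 fell (3.92%). Without stage 3 replicate 3, 1 of the kinesins and tubulins found by protein match rose, and with KEGG entries added the higher count was 2 without stage 2 replicate 1 and 0 without stage 2 replicate 2 or stage 3 replicate 1. Of 51 cytosolic ribosomal proteins 1 rose, the ubiquitin fusion S27a gene Cs8g15830, and its log2 fold change of 1.28 was 0.86 without stage 3 replicate 2. The count was 1 of 58 with KEGG entries added. In both counts none fell, or 1 without stage 2 replicate 3. None of the 16 photosystem genes was called. None of the 14 vascular genes was called by protein match, and 1 of 17 fell with KEGG entries added. The first lower count was 1 without stage 3 replicate 3, and the second was 0 without stage 2 replicate 1, stage 2 replicate 3 or stage 3 replicate 2.

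In the cytokinin list 5 of 22 rose (22.7%, beside 4.92% of all genes tested) and 1 fell, and with KEGG entries added 5 of 31 rose and 1 fell. The response regulator ARR15 (Cs5g04810), which is induced by cytokinin, went from 10.2, 10.3 and 11.1 FPKM to 30.4, 26.9 and 29.0 FPKM (log2 fold change 1.37), beside 92.1 ± 5.41 FPKM at stage 1. The faller was isopentenyltransferase 3 (Cs5g31590), which makes the hormone, at 41.8 ± 0.99 and 19.8 ± 2.08 FPKM. Its log2 fold change of -1.05 was -0.97 without stage 3 replicate 1. Of 44 auxin genes 2 rose (4.55%) and 1 fell (2.27%), shares near those of all genes tested, and with KEGG entries added 5 of 80 rose and 2 fell. The first lower count was 2 without stage 2 replicate 1 or stage 3 replicate 1. The GH3.1 gene Cs8g04610, of a family that ties auxin to amino acids, rose from 0.22 ± 0.30 to 4.76 ± 0.77 FPKM, and the repressor IAA30 (orange1.1t01781) fell from 41.7 ± 2.56 to 12.1 ± 2.30 FPKM. Of 13 gibberellin genes 2 rose and none fell, and with KEGG entries added 2 of 14 rose and 1 fell, though none fell without any 1 of the stage 2 libraries or without stage 3 replicate 3. In both counts the largest rise, that of the gibberellin-regulated gene Cs6g21260 (log2 fold change 1.36), was 0.88 and short of the threshold without stage 2 replicate 1, which left 1 riser. Of 6 brassinosteroid genes 1 rose, the BRU1 gene orange1.1t02385, itself an XTH relative, from 5.77 ± 1.23 to 64.0 ± 1.40 FPKM.

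Of 54 sugar and starch genes 4 rose (7.41%) and 3 fell (5.56%), beside 4.92% and 2.54% of all genes tested, and the higher count was 2 without stage 2 replicate 1. With KEGG entries added 6 of 77 rose and 3 fell. The trehalose-phosphate phosphatase D gene Cs3g18450, which clears a sugar signal, went from 1.31, 2.00 and 1.18 FPKM to 33.2, 29.2 and 29.5 FPKM (log2 fold change 3.68, SE 0.18, adjusted p = 3.9e-08), and the acid invertase Cs5g09220, which splits sucrose, fell from 46.5 ± 1.2 to 16.7 ± 2.88 FPKM. The glucose-6-phosphate translocator Cs2g07720, which carries sugar phosphate into plastids and was chosen after its values were seen, rose from 51.7, 50.5 and 54.3 FPKM to 283, 281 and 280 FPKM.

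Of 27 terpene synthases, 5 fell and 2 rose, with a median log2 fold change of -0.26, and with KEGG entries added 5 of 32 fell and 3 rose. All 5 fallers were annotated as (E)-beta-farnesene synthases, makers of a volatile sesquiterpene. The largest fall, in orange1.1t03302, was from 19.6, 19.8 and 22.1 FPKM to 4.47, 5.44 and 5.61 FPKM (log2 fold change -1.80, SE 0.14, adjusted p = 1.9e-06), and the other 4 (Cs4g12460, Cs4g11330, Cs4g11320 and Cs4g12350), named after their values were seen, had log2 fold changes of -1.76, -1.58, -1.52 and -1.24. Cs4g12350 reached 1 FPKM in the stage 2 libraries alone, so it entered the test only through the stage where it is high. How the reads were split among the genes of this family is not given in the sources used here. The higher count by protein match was 1 without stage 3 replicate 1, since the germacrene D synthase Cs4g12110, also named after its values were seen, was then at 0.97. Of 98 phenylpropanoid and flavonoid genes 8 rose (8.16%) and 6 fell (6.12%), and with KEGG entries added 8 of 135 rose and 9 fell. Both higher counts were 5 without stage 2 replicate 2 or stage 3 replicate 1, and the lower count by protein match was 3 without stage 3 replicate 3. Chalcone synthase (Cs3g19360), the entry step to flavonoids, fell from 134, 129 and 131 FPKM to 34.2, 27.4 and 37.1 FPKM, while a cinnamoyl-CoA reductase (Cs2g28000), on the way to lignin, rose from 13, 12.6 and 12.5 FPKM to 42.6, 46.9 and 50.8 FPKM.

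Of 33 glutathione S-transferases, which detoxify reactive compounds, 1 rose (3.03%) and 3 fell (9.09%). With KEGG entries added 1 of 46 rose (2.17%) and 3 fell (6.52%). Both higher counts were 2 without stage 2 replicate 3. The riser orange1.1t03455 went from 0.57 ± 0.53 to 16.9 ± 1.23 FPKM, and Cs7g15760 fell from 180 ± 9.32 to 68.6 ± 6.8 FPKM. Of 22 peroxidases 2 rose (9.09%) and 1 fell (4.55%), and with KEGG entries added 5 of 30 rose (16.7%) and 1 fell (3.33%). The first higher count was 1 without stage 3 replicate 1. Peroxidase 12 (Cs3g21730) fell from 83.0 ± 2.69 to 35.5 ± 2.06 FPKM, and peroxidase 21 (Cs1g18600) rose from 1.91 ± 0.21 to 5.25 ± 0.79 FPKM. Of 59 lectin and wall-associated receptor kinases 2 rose (3.39%) and 3 fell (5.08%), and with KEGG entries added the counts were the same among 60 genes. Of 50 MYB factors 4 rose (8.0%) and 2 fell (4.0%), and with KEGG entries added 6 of 75 rose (8.0%) and 2 fell (2.67%). Both lower counts were 1 without stage 2 replicate 1 or stage 3 replicate 3, and the first also without stage 3 replicate 1.

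**Figure D5:**
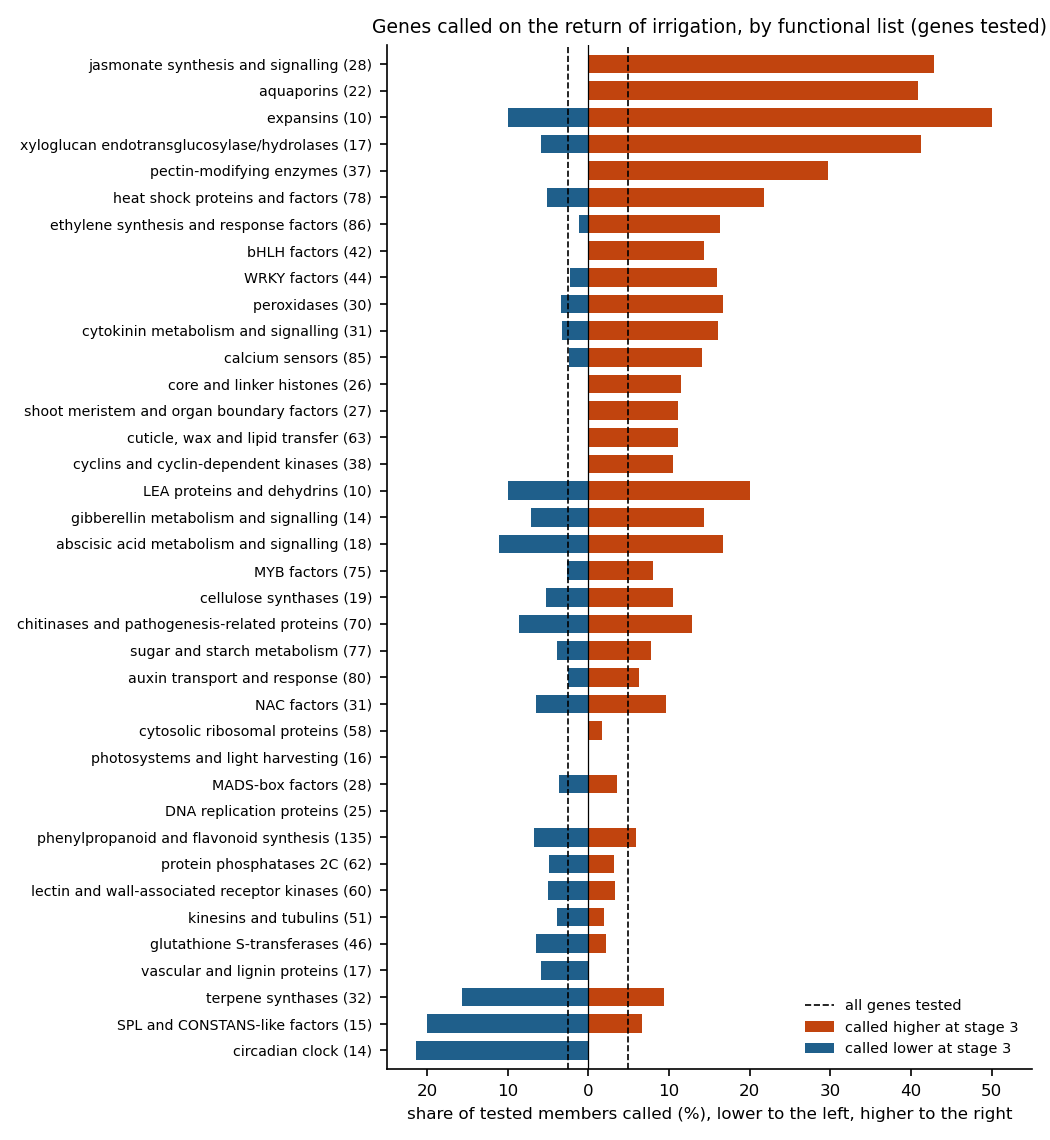
Share of tested genes that rose (orange) and fell (blue) from stage 2 to stage 3 in each functional list with at least 10 tested genes, with KEGG entries added, in percent. Dashed lines mark the shares over all 17729 genes tested, 4.92% for rises and 2.54% for falls, and the expansin, jasmonate, XTH and aquaporin lists each reach at least 40.9% higher.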

How the data were processed

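RNA was sequenced from lemon buds at 3 stages with 3 replicates each, which came from 3 groups of trees. Whether the same groups were sampled at each stage is not given in the sources used here. The authors filtered reads with the FASTX-Toolkit, mapped them to the sweet orange genome with BWA and deposited FPKM values for each library; for their versions and for the counting program, not given in the sources used here. Each of the 9 FPKM columns was matched to its library. Values were log2 transformed with a pseudocount of 1 and tested with limma 3.58.1 (R 4.3.3), with its trend option, 1 mean per stage and no covariate. Genes with at least 1 FPKM in at least 3 libraries were kept, and p-values were adjusted by the Benjamini-Hochberg method over all of them. Python 3.11.15, numpy 2.4.6, pandas 2.3.3 and matplotlib 3.10.9 were used for counts and plots. The fit was tested on simulated data. Alternatives changed the scaling, filter, pseudocount, call rule, libraries in the fit, replicate block and test, one at a time; the KEGG additions to the lists and the second form of the NOISeq-style probability were chosen after the data had been seen.

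The comparison, the 43 functional lists and the rule for naming genes were chosen with earlier results of these data known. Lists were matched on words of the protein match; where it was not descriptive, names were taken from the descriptions of the study's gene table. The rule named the 10 largest rises and falls by fold, the 6 largest by FPKM, the largest rise and fall of each list and the flowering genes that the study names by identifier, 93 in all. Genes outside it are marked in the text. Sequences and coordinates were not used here.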

Additional observations from a re-analysis of the deposited data

How the results depend on the processing

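The counts of 1322 changed genes, 872 higher and 450 lower, moved by more than 1.5 times under 1 of the alternatives tried: without a fold threshold they were 6390, 2876 and 3514. The others gave 1035 to 1680 in all, apart from a NOISeq-style probability after the study's methods, which gave 934 (600 higher, 334 lower). That count was recomputed with genes at 0 in all 6 libraries left out of the noise, giving 922 (596 and 326), a choice made after the first count had been seen and with the study's count known. Leaving out 1 library gave 1294 to 1336 in all, 832 to 893 higher and 422 to 472 lower. With the replicate number as a block the counts were 1319, 866 and 453. Same-numbered stage 2 and stage 3 libraries did not deviate together (correlations of -0.04, 0.03 and -0.10). These values cannot show whether the same groups of trees were sampled at each stage. The 93 named genes kept their direction throughout where called, and 1963 of their 2030 values under alternatives kept their side of the threshold. For 25 of them the call changed under some setting, and for 11 when 1 library was left out. Quantile normalization ended the calls of Cs1g08000, Cs8g11514 and Cs4g12110, median scaling that of Cs7g03150, and each of the 2 those of Cs3g14440, Cs1g19130 and Cs4g14980. A pseudocount of 0.01 ended those of Cs4g12350 and Cs6g21260. Low levels limit precision, and since the values are FPKM no interval from read counts could be set for genes of a few FPKM.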

Other observations

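The annotation terms of the table were also counted, with no test, for the 266 GO and KEGG terms that hold 20 to 500 tested genes. They were looked at after the values were known, and the genes named from them were chosen after their values were seen. Among rises, the KEGG entry of the ERF and DREB factors had 16 of 59 genes higher (27.1%), and that of the calmodulin-like proteins had 8 of 36 (22.2%), against 4.92% of all genes tested. The GO term extracellular region had 8 of 38 higher (21.1%), and of the KEGG entries with leucine-rich repeat receptor kinases among their commonest names 1 had 11 of 74 higher and none lower, while 2 others had 11 of 124 higher and 6 lower and 2 of 42 higher and 3 lower.

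Among falls, a KEGG entry of dnaJ co-chaperones, the partners of the 70-kDa heat shock proteins, had 5 of 28 genes lower and none higher (17.9%, against 2.54% of all genes tested), and another had 2 of 20 lower and 1 higher. Cs1g16820 went from 65.7 ± 4.75 to 19.2 ± 0.72 FPKM and Cs7g13810 from 27.0 ± 1.22 to 4.67 ± 0.62 FPKM (SD, n = 3). The largest KEGG entry of cytochrome P450 enzymes had 16 of 100 lower and 7 higher, while the GO term iron ion binding, in which these enzymes are common, had 9 of 155 lower and 20 higher. In the KEGG entry were log2 fold changes of -2.5 in the 78A5 gene Cs7g10680 and -2.32 in the 76A2 gene Cs6g15610. Cyclic nucleotide-gated ion channels had 4 of 29 lower and none higher, and Cs9g18210 fell from 31.5 ± 4.68 to 7.10 ± 0.28 FPKM. A pair of chloroplast genes also fell, the thiamine thiazole synthase Cs2g07600, which makes part of vitamin B1, from 131 ± 4.51 to 19.2 ± 2.31 FPKM, and the sigma factor sigD gene Cs7g02120, a subunit of the chloroplast RNA polymerase, from 15.4 ± 1.01 to 1.98 ± 1.04 FPKM.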
